A study of Mus musculus with 4 samples.

Results

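The calcineurin and NFAT genes Ppp3ca, Rcan1, Nfatc1, Nfatc2, Nfatc3 and Nfat5 were examined as a list of 6 named genes out of 21627 protein-coding genes on chromosomes 1 to 19 and X. For each gene, accessible regions were taken from the gene body with 20 kb on either side, here called the locus. Open DNA had been profiled by ATAC-seq, where Tn5 transposase cuts and tags it, in CD8+ lymphocytes from mice of the Balb/c strain. The series title calls the cells tumour-infiltrating. The 4 conditions were cells stimulated and treated with phenelzine, cells stimulated and left untreated, unstimulated cells treated with phenelzine, and unstimulated untreated cells, with 1 library each and no replicates. Stimulation was with PMA and ionomycin for 2 h. The labels list 1 mg/mL PMA and 10 mM ionomycin without saying whether these are stock or final strengths. Phenelzine blocks monoamine oxidases and the histone demethylase LSD1. The sources used here give neither its dose nor the tumour, the age of the mice or any pooling.

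Ionomycin is a calcium ionophore. A rise in cytosolic calcium activates calmodulin and through it calcineurin, a phosphatase whose catalytic alpha subunit is encoded by Ppp3ca. Calcineurin strips phosphates from NFAT factors in the cytoplasm, which then enter the nucleus and bind DNA, often beside AP-1 proteins that PMA induces through protein kinase C. Nfatc1, Nfatc2 and Nfatc3 encode calcineurin-controlled NFAT factors, and in T cells Nfatc1 is known to be induced by the pathway itself. Nfat5 encodes a related factor without the calcineurin-docking region and is known for the response to hypertonic stress. Rcan1 encodes an inhibitor of calcineurin, and its internal promoter is a known target of NFAT, which makes it a feedback gene of the pathway.

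Start sites with 300 bases around them (250 before and 50 after) were in the promoter table for 4 of the 6 genes, as 7 windows. The 5 windows that held a peak of any list are shown because the results at Rcan1, Nfatc2, Nfatc3 and Nfat5 turn on them. Sequences are from RefSeq (GRCm38.p6, the assembly of mm10) and read 5′ to 3′ on the gene's strand. Capitals mark matches on either strand to 3 kinds of motif. These were the NFAT core, GGAAA, the AP-1 site, TGAGTCA, and the cyclic AMP response element, TGACGTCA.
Rcan1 internal start (chr16:92400029-92400328, minus strand): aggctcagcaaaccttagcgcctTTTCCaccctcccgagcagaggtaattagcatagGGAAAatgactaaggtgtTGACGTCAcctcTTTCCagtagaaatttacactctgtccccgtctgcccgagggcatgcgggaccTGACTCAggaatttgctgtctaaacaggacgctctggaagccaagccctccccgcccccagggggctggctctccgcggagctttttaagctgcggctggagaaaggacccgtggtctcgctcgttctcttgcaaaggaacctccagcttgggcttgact
Rcan1 distal start (chr16:92466120-92466419, minus strand): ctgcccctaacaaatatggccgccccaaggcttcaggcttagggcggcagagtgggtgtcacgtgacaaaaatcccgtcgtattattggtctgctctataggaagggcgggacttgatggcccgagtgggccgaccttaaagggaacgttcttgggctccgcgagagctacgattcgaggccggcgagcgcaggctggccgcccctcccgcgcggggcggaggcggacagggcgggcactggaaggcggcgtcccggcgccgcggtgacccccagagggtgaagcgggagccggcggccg
Nfatc2 outer start (chr2:168601608-168601907, minus strand): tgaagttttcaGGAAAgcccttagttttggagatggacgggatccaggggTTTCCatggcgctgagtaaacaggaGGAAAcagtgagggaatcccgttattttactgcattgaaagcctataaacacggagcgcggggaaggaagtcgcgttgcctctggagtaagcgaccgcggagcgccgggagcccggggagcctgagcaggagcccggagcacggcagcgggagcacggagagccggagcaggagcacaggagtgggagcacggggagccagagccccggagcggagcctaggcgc
Nfatc3 inner start (chr8:106059340-106059639, plus strand): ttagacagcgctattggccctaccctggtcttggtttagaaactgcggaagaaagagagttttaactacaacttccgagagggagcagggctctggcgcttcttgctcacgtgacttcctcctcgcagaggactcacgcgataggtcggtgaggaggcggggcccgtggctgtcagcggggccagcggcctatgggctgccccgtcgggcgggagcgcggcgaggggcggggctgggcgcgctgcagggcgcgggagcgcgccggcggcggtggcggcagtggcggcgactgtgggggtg
Nfat5 start (chr8:107293220-107293519, plus strand): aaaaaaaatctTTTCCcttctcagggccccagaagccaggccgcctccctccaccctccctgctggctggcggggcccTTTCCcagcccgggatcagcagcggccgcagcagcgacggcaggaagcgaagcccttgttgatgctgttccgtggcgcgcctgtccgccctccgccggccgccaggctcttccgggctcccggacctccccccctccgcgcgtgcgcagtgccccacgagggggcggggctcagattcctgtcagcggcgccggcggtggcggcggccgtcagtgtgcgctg

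The Rcan1 internal window held all 3 kinds of motif, with 3 NFAT cores, 1 AP-1 site and 1 cyclic AMP response element. No 2 of these matches overlapped. Among all 32583 promoter windows, 61.6% held an NFAT core, 5.23% the AP-1 site and 1.80% the cyclic AMP response element, and 9 windows (0.0276%) held all 3 kinds. The Nfatc2 outer window held 3 NFAT cores, a number reached by 9.46% of all windows, and no match to the other letters. The Nfat5 window held 2 NFAT cores. In the Rcan1 distal and Nfatc3 inner windows none of these letters occurred. The GC box GGGCGG, searched on either strand, occurred 6 times in the Rcan1 distal window and 2 times in the Nfatc3 inner one. It also occurred 2 times in the Nfat5 window and 1 time in the Rcan1 internal one, and not in the Nfatc2 outer one. Of all windows, 35.9% held at least 1 GC box. A match of letters is a description of the sequence and not a measured binding site.

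The stimulated phenelzine list held 9331 peaks, the stimulated untreated list 10414, the unstimulated phenelzine list 7938 and the unstimulated untreated list 6525, called in each library on its own. Each peak carries a fold enrichment over local background and a −log10 q, both the authors' own values within that list. The lists give no read totals. The background they imply was a pileup, the number of fragments over a position, of 0.489, 0.493, 0.471 and 0.392, in the same order of lists, so the unstimulated untreated library was the shallowest by this measure. On that scale the 44 peaks in the 6 loci were pileups of 4.30 to 9.78 fragments, with a median of 5.74. A missing peak therefore says that a site was not detected with this few fragments, not that it was closed, and fewer cells with an open site cannot be told apart from a less open site in each cell. Without replicates no difference between lists could be set against the spread between animals or libraries, and no test between conditions was made. Of the 9 matched T cell marker genes 6 had a region in the locus, with Cd8a, Cd8b1 and Zap70 at 0 in all 4 lists. Marker genes of other cells with a region were 2 of 4 for CD4 and regulatory T cells, 2 of 5 for B cells, 3 of 6 for myeloid cells, 1 of 3 for NK cells, 2 of 4 for epithelium and 1 of 4 for stroma and endothelium. Over all protein-coding genes 58.1% had a region, more than in each of these lists of other cells. The T cell markers stood at 66.7%, against 65.4% of genes within their range of body lengths. Their 6 genes held 5 distinct regions, as some loci overlap. A region was thus about as common at T cell markers as at genes of like length, and does not show which cells were present. The share of any other cell type in the libraries was not tested.

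All 6 loci held at least 1 region, where peaks of different lists that overlap by at least 1 bp count as 1 region. There were 21 regions in 0.972 Mb, or 21.6 per Mb, against 8.96 per Mb over the loci of all protein-coding genes. The members were chosen with earlier results of these data known. Neither this density nor a region in all 6 loci can therefore show that the loci are rich in regions. No density was counted for genes of like length. Every member is a long gene, with bodies of 71.7 to 268 kb against a median of 17.3 kb for all genes. Of the 3488 genes at least as long as the shortest member, 63.2% had a region in the locus. The 6 loci together held 13 regions in stimulated phenelzine cells, 14 in stimulated untreated cells, 6 in unstimulated phenelzine cells and 11 in unstimulated untreated cells. Nfatc2 had the most regions over all lists, 7, and Nfat5 the fewest, 1.

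**Figure D1:**
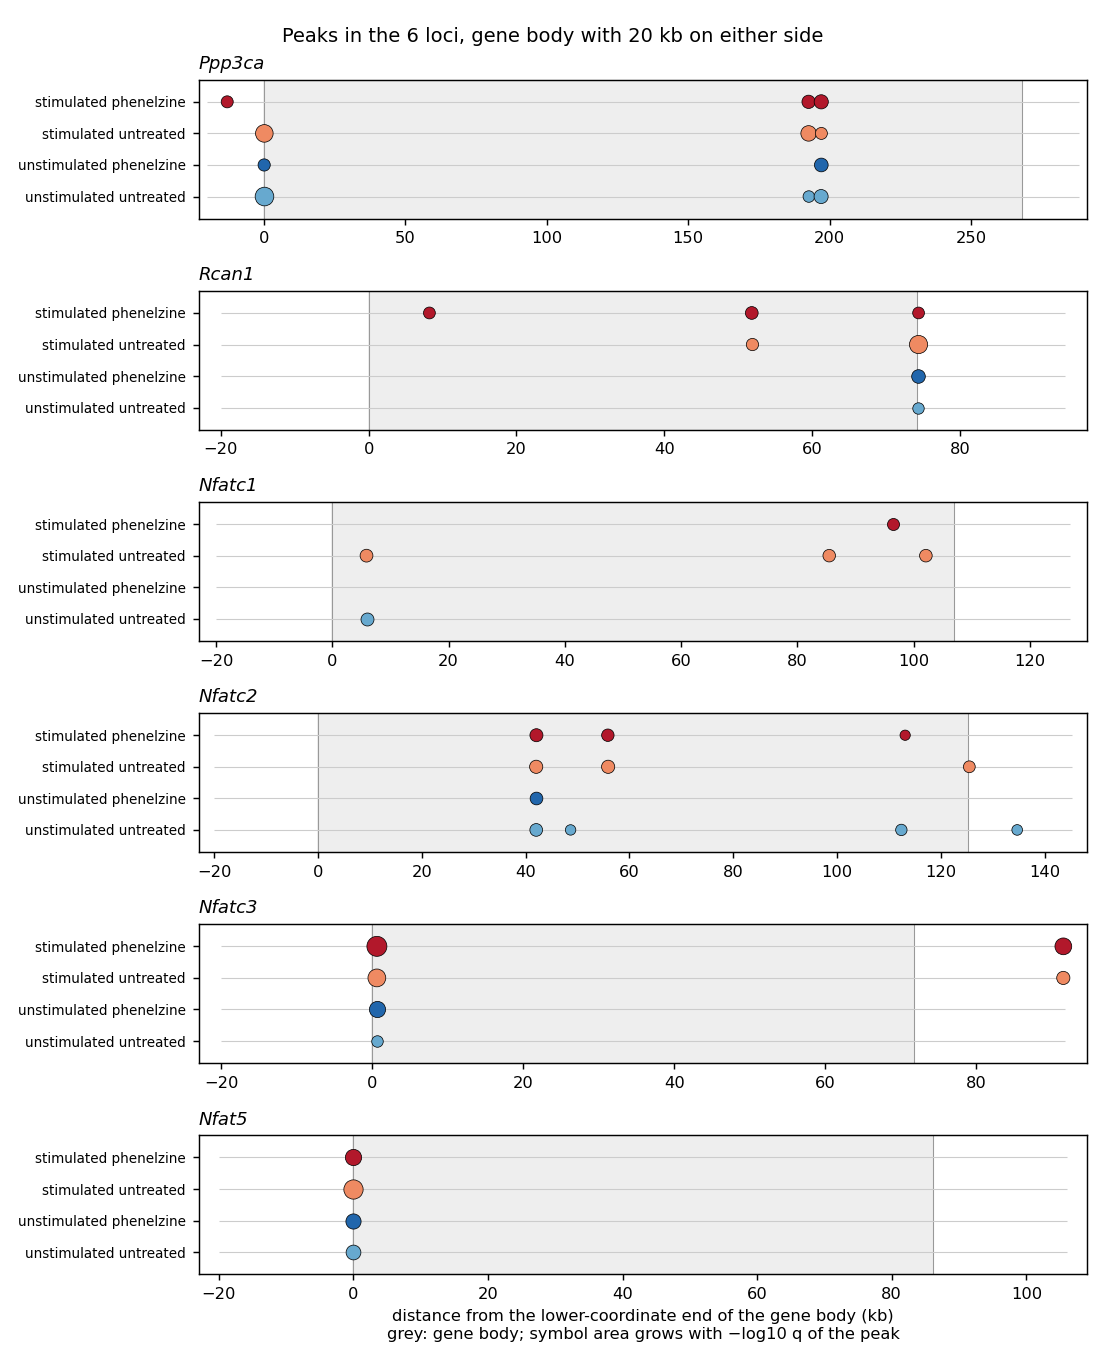
Peaks of each list (rows) in the 6 loci, placed by their midpoint in kb from the lower-coordinate end of the gene body, which is shaded grey; the area of a symbol grows with −log10 q. All 4 lists have a peak at the start of Nfat5 and near the start of Nfatc3, while the unstimulated phenelzine row of Nfatc1 is empty.

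Ppp3ca, the calcineurin catalytic subunit gene (chromosome 3 from 136669714 to 136937727), had 3 regions in stimulated phenelzine cells, 3 in stimulated untreated cells, 2 in unstimulated phenelzine cells and 3 in unstimulated untreated cells. At the lower-coordinate end of the gene, a region on chromosome 3 from 136669722 to 136670091 was missing from the stimulated phenelzine list alone. Its −log10 q was 5.49 in stimulated untreated, 1.99 in unstimulated phenelzine and 6.34 in unstimulated untreated cells, so the peak was strong in both untreated lists and weak or missing in both phenelzine lists. Ranked by −log10 q within its list, it stood at percentile 82.4 in stimulated untreated, 29.8 in unstimulated phenelzine and 91.9 in unstimulated untreated cells. No strand or start site of Ppp3ca was in the tables used here, and no sequence is shown.

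A pair of regions lay deep inside Ppp3ca, 193 and 197 kb from its lower end. The region from 136866509 to 136866940 was held by all 4 lists, with −log10 q of 3.12 in stimulated phenelzine, 1.88 in stimulated untreated, 2.84 in unstimulated phenelzine and 3.05 in unstimulated untreated cells. Its neighbour from 136862173 to 136862377 had −log10 q of 2.60, 3.98 and 1.65 in stimulated phenelzine, stimulated untreated and unstimulated untreated cells and no peak in unstimulated phenelzine cells. The peak of the unstimulated untreated list covered the far side of that region and overlapped the others by less than 50% of the shorter peak. The remaining region lay 12.9 kb below the gene, from 136656812 to 136656880, in the stimulated phenelzine list alone, with fold enrichment 4.29 and −log10 q 1.89.

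Rcan1, the feedback inhibitor gene (chromosome 16 from 92391951 to 92466169, minus strand), had 3 regions in stimulated phenelzine cells, 2 in stimulated untreated cells, 1 in unstimulated phenelzine cells and 1 in unstimulated untreated cells. The distal promoter held a peak in all 4 lists, in a region from 92466153 to 92466431. Its −log10 q was 1.75 in stimulated phenelzine, 5.96 in stimulated untreated, 2.78 in unstimulated phenelzine and 1.59 in unstimulated untreated cells, and the matching fold enrichments were 4.18, 6.47, 4.92 and 4.13. The stimulated untreated value was the high one, at percentile 85.5 of that list, and the other 3 peaks stood at percentiles 20.04, 52.0 and 7.04 of their lists.

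At the internal start site of Rcan1 a peak was called in the stimulated phenelzine list alone, from 92400083 to 92400268, with fold enrichment 4.23 and −log10 q 1.79. It reached from 190 to 5 bases before the start site, which is bases 61 to 246 of the Rcan1 internal window printed above. The cyclic AMP response element, the AP-1 site and 1 of the NFAT cores lay whole within the peak, another NFAT core lay across its edge and the third lay outside. This peak was weak for its list, at percentile 21.7, and was 1 of 2019 regions of that list alone. The other region inside the gene, from 92443718 to 92443962, was found in both stimulated lists and in no unstimulated one. Its −log10 q was 2.28 in stimulated phenelzine and 2.02 in stimulated untreated cells, and it lay 22.3 kb downstream of the distal start site.

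**Figure D2:**
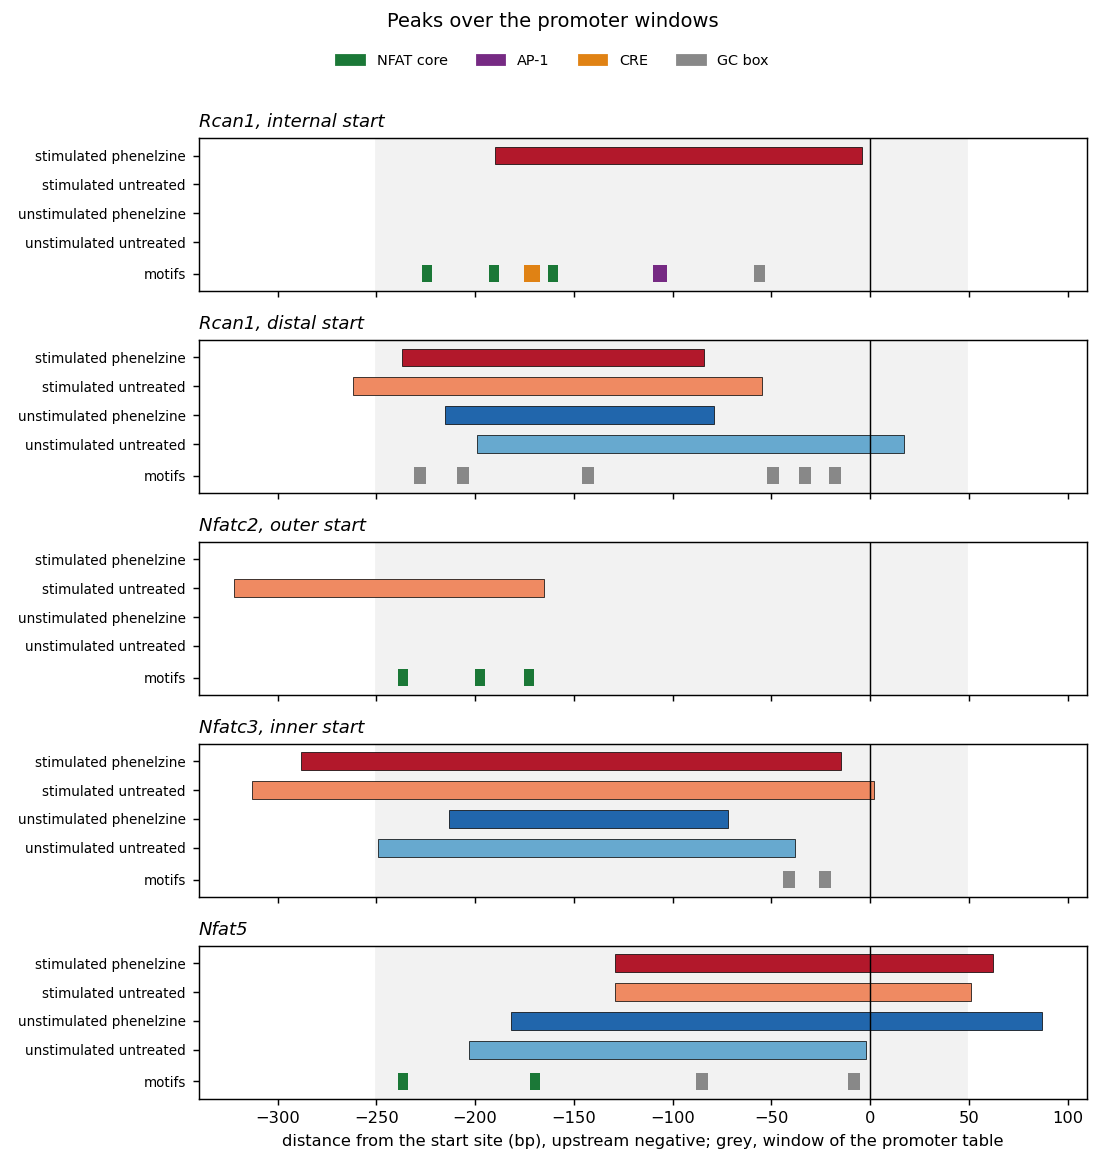
Extent of each list's peak (bars) over the 5 promoter windows with a peak, in bp from the start site with upstream negative; the grey band is the window of the promoter table and the lowest row marks the motif matches. At the Rcan1 internal start the stimulated phenelzine list has a bar from 190 to 5 bases upstream and the other 3 lists have none, while all 4 lists have bars at Rcan1 distal, Nfatc3 inner and Nfat5.

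Nfatc1 (chromosome 18 from 80606205 to 80713071), the NFAT gene known to be induced on T cell activation, had 1 region in stimulated phenelzine cells, 3 in stimulated untreated cells, 0 in unstimulated phenelzine cells and 1 in unstimulated untreated cells. All were weak, with −log10 q from 1.90 to 2.40. In stimulated untreated cells they lay 5.91, 85.5 and 102 kb from the lower end of the gene, with −log10 q of 2.31, 2.16 and 2.203. The last of these, from 80708237 to 80708338, lay 4.78 kb inside the higher-coordinate end. The region of the stimulated phenelzine list, from 80702614 to 80702745 with −log10 q 1.90, overlapped none of them. Unstimulated untreated cells shared the region 5.91 kb from the lower end (−log10 q 2.40), though both peaks met over less than 50% of the shorter one.

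Nfatc2 (chromosome 2 from 168476410 to 168601657, minus strand) encodes the NFAT factor that resting T cells already hold in the cytoplasm. It had 3 regions in stimulated phenelzine cells, 3 in stimulated untreated cells, 1 in unstimulated phenelzine cells and 4 in unstimulated untreated cells. Only the region from 168518281 to 168518614, inside the gene, was held by all 4 lists. Its values were nearly level, with −log10 q of 2.43 in stimulated phenelzine, 2.52 in stimulated untreated, 2.25 in unstimulated phenelzine and 2.26 in unstimulated untreated cells. The region from 168532175 to 168532355 was held by both stimulated lists alone, with −log10 q of 2.11 in phenelzine-treated and 2.52 in untreated cells.

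The outer promoter of Nfatc2 had a peak in stimulated untreated cells alone, from 168601823 to 168601979, with fold enrichment 4.16 and −log10 q 1.78. It covered bases 1 to 85 of the window printed above, and with them all 3 NFAT cores. At the inner start site, chromosome 2 from 168590316 to 168590615, no list had a peak. The midpoint of the nearest peak lay 826 bp downstream of that site, in stimulated phenelzine cells alone, with −log10 q 1.03. The remaining 3 regions belonged to the unstimulated untreated list alone, with −log10 q of 1.11, 1.57 and 1.20, among the weakest 6.53% of that list.

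Nfatc3 (chromosome 8 from 106058818 to 106130537, plus strand) encodes a further calcineurin-controlled factor and held 2 regions in stimulated phenelzine cells, 2 in stimulated untreated cells, 1 in unstimulated phenelzine cells and 1 in unstimulated untreated cells. Its inner promoter had the strongest peak of the 6 loci. From 106059277 to 106059591, its −log10 q was 7.47 in stimulated phenelzine, 5.66 in stimulated untreated, 4.46 in unstimulated phenelzine and 1.63 in unstimulated untreated cells. Fold enrichments were 7.24, 6.15, 5.87 and 4.17. Both stimulated lists were higher than both unstimulated lists, and each phenelzine list was higher than its untreated counterpart, as values of separate lists. Within their lists the peaks stood at percentiles 95.4, 83.5, 79.9 and 8.07. At the outer start site, chromosome 8 from 106058568 to 106058867, no list had a peak. The other region, held by both stimulated lists alone (−log10 q 4.88 with phenelzine and 2.52 without), lay 19.8 kb beyond the far end of Nfatc3 at the promoter of the neighbouring gene Pla2g15, a lysosomal phospholipase gene, and just within the 20 kb flank. The nearest region outside a flank lay 24.3 kb from the body of Nfatc2.

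Nfat5 (chromosome 8 from 107293435 to 107379517, plus strand), the member that calcineurin does not control, had 1 region in each list. It covered the start site, from 107293267 to 107293556. Its −log10 q was 4.52 in stimulated phenelzine, 6.86 in stimulated untreated, 3.77 in unstimulated phenelzine and 3.50 in unstimulated untreated cells, with fold enrichments of 5.89, 7.02, 5.48 and 5.37. It was the one region of the 6 loci with −log10 q of at least 3 in every list. Both stimulated lists began 129 bases before the start site, while the peaks of unstimulated phenelzine cells began 182 and of unstimulated untreated cells 203 bases before it.

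**Figure D3:**
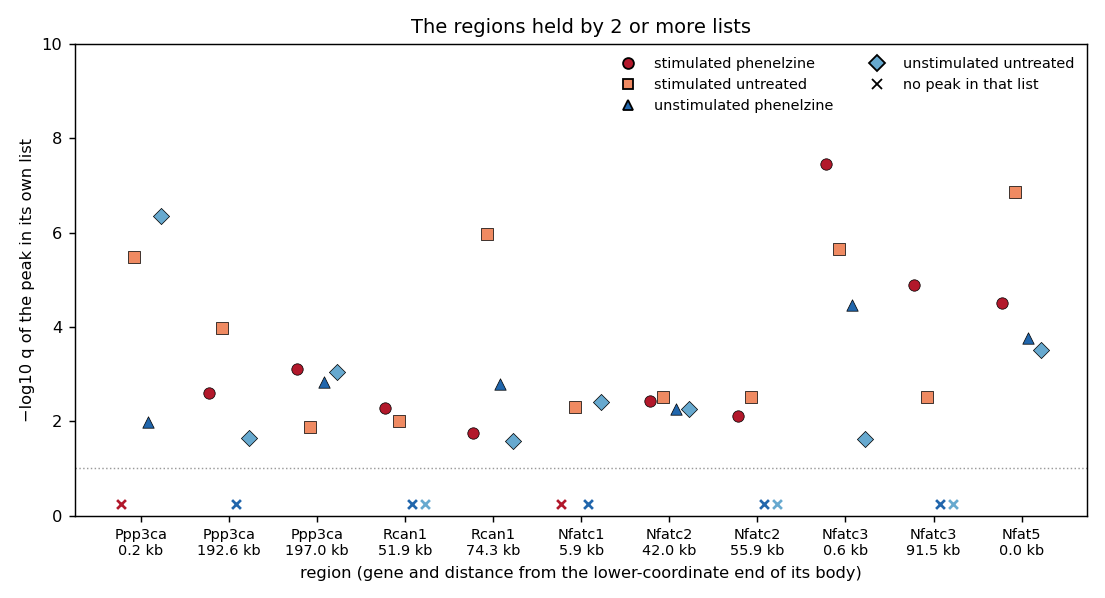
The −log10 q (vertical axis) of each list's peak in the 11 regions of the 6 loci held by at least 2 lists, named by gene and distance from the lower-coordinate end; crosses near the axis mark lists without a peak, and the dotted line is drawn at 1, close to the lowest value of the lists. The highest point, 7.47, is the stimulated phenelzine peak at Nfatc3, and the 4 points of Nfatc2 at 42.04 kb lie between 2.25 and 2.52.

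Of the 7 regions with −log10 q of at least 3 in some list, 5 lay within 1 kb of an end of a gene, against 1 of the 14 weaker ones. The matching shares over all regions of the series were not counted, so this split cannot be called a trait of these loci. Of the 7 promoter windows of the members, 3 held a peak of all 4 lists, against 11.0% of all windows, and 5 held a peak of any list, against 22.9%. By list, 4 member windows held a peak in stimulated phenelzine cells (17.6% of all windows), 4 in stimulated untreated cells (18.9%), 3 in unstimulated phenelzine cells (16.4%) and 3 in unstimulated untreated cells (14.6%). The choice of members with earlier results known limits these window counts as well. The windows of the table were also not limited to protein-coding genes, whereas all members are such genes. Over the 44 peaks the median −log10 q was 2.36, and 68.2% were under 3, against 54.1% of all peaks. The 10 regions held by 1 list alone had −log10 q of 1.03 to 2.203 with a median of 1.78, and all peaks of such regions in the series had a median of 1.85. The 20 peaks in regions held by all 4 lists had a median of 2.94, against 3.91 for all such peaks in the series.

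**Figure D4:**
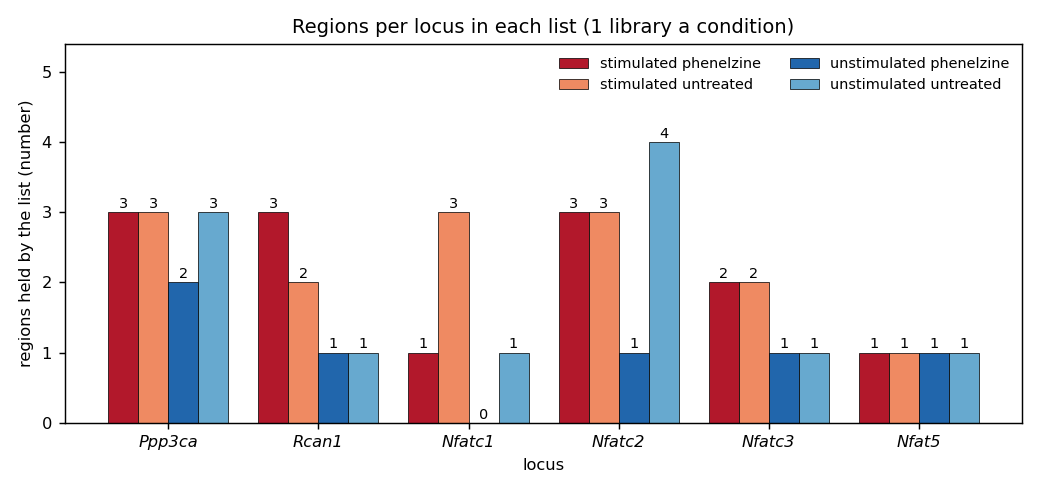
Number of regions (bars, printed above each) that each list holds in the 6 loci; 1 library a condition, so no error bars can be drawn. Nfat5 has 1 region in every list, Nfatc1 ranges between 0 in unstimulated phenelzine and 3 in stimulated untreated cells, and Nfatc2 reaches 4 in unstimulated untreated cells.

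The first comparison asked which regions differed with stimulation in untreated cells. There, 3 members had more regions in the stimulated list, Nfatc1 (3 against 1), Rcan1 (2 against 1) and Nfatc3 (2 against 1). The extra Nfatc3 region was the one at the Pla2g15 promoter, and in the gene body alone Nfatc3 had 1 region in each list. Nfatc2 had fewer (3 against 4), and Ppp3ca and Nfat5 had the same number. The stimulated list alone held 6 regions of the 6 loci, the unstimulated list alone 3 and both 8. In the 4 comparisons, a list alone means without the other list of the pair, whatever the remaining lists hold. The shares of all regions of the series in these pairwise classes were not counted for any of the 4 comparisons. More regions were found at 23.6% of all protein-coding genes and 29.4% of genes as long as the members, and fewer at 4.53% and 4.96%. In all 4 comparisons these shares include genes without a region in any list, which cannot differ. All 6 members held a region. The stimulated list is the longer one. With lists cut to 6519 peaks each, the net difference over the 6 loci was −3 regions in place of 3, as the stimulated list lost 3 regions at Nfatc1 and 1 each at Ppp3ca, Rcan1 and Nfatc2 while the unstimulated list, the shortest, was kept whole.

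In phenelzine-treated cells 5 members had more regions in the stimulated list and none had fewer. Rcan1 and Nfatc2 had 3 against 1 each, Ppp3ca 3 against 2, Nfatc3 2 against 1 and Nfatc1 1 against 0, and Nfat5 had 1 in both. In the gene body alone the differences of Ppp3ca (2 against 2) and Nfatc3 (1 against 1) were 0. The stimulated list alone held 8 regions, the unstimulated list alone 1 and both 5. The background was 16.0% of all genes with more regions and 20.9% of long genes, with fewer at 9.56% and 12.3%. All 6 members had a region, against 63.2% of long genes, and a gene without a region cannot differ. With −log10 q of at least 3, or with lists of equal length, the net difference was 2 regions in place of 7.

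Phenelzine was compared with no drug in unstimulated cells next. No member had more regions with phenelzine and 3 had fewer, Nfatc2 (1 against 4), Nfatc1 (0 against 1) and Ppp3ca (2 against 3). The phenelzine list alone held 0 regions, the untreated list alone 5 and both 6, and the matching shares of all regions were not counted. Across all genes 15.7% had more and 8.54% fewer regions with phenelzine, and among long genes 18.8% and 10.2%. Over all genes more loci thus had an excess than a deficit of regions with phenelzine. With all peaks counted, the members had deficits alone. Of the 5 regions, 3 were the weak Nfatc2 ones, the others being the Nfatc1 region 5.91 kb and the Ppp3ca region 193 kb from the lower end. With −log10 q of at least 3 the net difference was −1 region in place of −5. Ppp3ca then had a deficit (−2), Nfatc3 an excess (1) and the other members no difference.

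In stimulated cells, phenelzine-treated cells had more regions at 1 member, Rcan1 (3 against 2, through its internal promoter), and fewer at 1, Nfatc1 (1 against 3). The phenelzine list alone held 4 regions, the untreated list alone 5 and both 9. More regions were found at 10.3% of all genes and 13.6% of long genes, and fewer at 16.2% and 20.8%. The 4 comparisons share lists, each list entering 2 of them, so their counts are not independent of each other. With peaks of −log10 q of at least 3, Rcan1 had 0 regions with phenelzine against 1 without, through its distal promoter.

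Of the 21 regions, 3 were found after stimulation alone, in both drug arms (14.3%, exact 95% interval 3.05 to 36.3), 1 each in the loci of Rcan1, Nfatc2 and Nfatc3, the last being the Pla2g15 promoter outside the gene. The interval covers counting error only. Over the whole series 5.88% of 15237 regions had this pattern. The share in all 4 lists was 23.8% (8.22 to 47.2) against 26.8%, and in 1 list alone 47.6% (25.7 to 70.2) against 43.6%. No region of the 6 loci belonged to the unstimulated phenelzine list alone (0%, up to 16.1), against 8.32% in the series. The unstimulated untreated list alone held 14.3% (3.05 to 36.3), all at Nfatc2, against 4.39% in the series. For the stimulated phenelzine list alone the share was 19.05% (5.45 to 41.9) against 13.3%. For the stimulated untreated list alone it was 14.3% (3.05 to 36.3) against 17.6%. Each of these intervals held the share of the series.

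Among 38 other genes of calcium release, calcineurin and NFAT control, 31 (81.6%) had a region in the locus, against 58.1% of all protein-coding genes and 64.0% of genes within the same range of body lengths, 3.24 to 394 kb. This list too was chosen with earlier results of these data known. Its genes held 75 distinct regions in all. These were split over 48 in stimulated phenelzine, 52 in stimulated untreated, 38 in unstimulated phenelzine and 38 in unstimulated untreated cells. After stimulation of phenelzine-treated cells 11 genes (28.9%) had more and 3 (7.89%) fewer regions, against 16.0% and 9.56% of all genes. In untreated cells 10 (26.3%) had more and 2 (5.26%) fewer, near the 23.6% and 4.53% of all genes. With phenelzine 9 (23.7%) had more and 8 (21.1%) fewer in unstimulated cells, against 15.7% and 8.54% of all genes. In stimulated cells 7 (18.4%) had more and 7 fewer with phenelzine, against 10.3% and 16.2% of all genes. The shares of all genes in these comparisons were not matched for body length, and longer loci can hold more differences. The median body was 38.5 kb for the 38 genes and 17.3 kb for all genes. The median difference was 0 in each comparison, for these genes and for all genes. Nfatc4, the remaining calcineurin-controlled NFAT gene, which was chosen here after its values were seen, had no region in any list.

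The genes named next are those whose count differed by 2 or more regions in a comparison. The share of all genes with such a difference was not counted. Some of these genes are very long, with bodies of 338 kb for Itpr1, 299 kb for Akap13 and 238 kb for Rcan2. Their counts run over stimulated phenelzine, stimulated untreated, unstimulated phenelzine and unstimulated untreated cells. Ppp3cc, encoding another calcineurin catalytic subunit, had 1, 2, 1 and 0 regions. Rcan2, a relative of Rcan1, had 4, 3, 1 and 3. The genes of calcium channels that release calcium from the endoplasmic reticulum, Itpr1 and Itpr3, had 4, 4, 4 and 2 regions and 1, 3, 1 and 0 regions. Atp2b1, encoding a calcium pump of the plasma membrane, had 2, 3, 1 and 1, and Csnk1d, a casein kinase gene, 0, 2, 0 and 0. Akap13, a kinase-anchoring protein gene, had 1, 4, 1 and 3.

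Of 16 known NFAT target genes, 7 (43.8%) had a region in the locus, against 58.1% of all genes and 60.4% of genes within their range of body lengths, 2.195 to 20.9 kb. The other 9 had none in any list, among them Il2, Ifng and Csf2, which are named here with their values known. After stimulation 3 of 16 (18.8%) had more and 3 fewer regions in phenelzine-treated cells, and 3 had more and 0 fewer in untreated cells, against the shares of all genes given for the same comparisons above. Those shares were not matched for the short bodies of the target genes, with a median of 5.75 kb. With phenelzine 2 had more and 1 fewer in unstimulated cells, and 1 had more and 3 fewer in stimulated cells. Egr3, an early response factor gene, had 0 regions in stimulated phenelzine cells and 2 in each of the other 3 lists.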

How the data were processed

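The submitters' processing notes name mm10 as the build and, as tools, Bowtie2 2.2.5, Trimmomatic 0.33, HOMER, MACS2 and Picard. The sources used here give no parameters. The authors deposited 1 list of broad peaks per library, not pooled, with a score (10 times −log10 q, rounded down, in all but 2 peaks), a fold enrichment (ratio over local background) and −log10 p- and q-values. The peak names carry the tag less120; if this is a limit on fragment length, the lists describe short fragments.

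Peaks on chromosomes 1 to 19 and X were merged into regions by an overlap of at least 1 bp (Python 3.11.15, pandas 2.3.3, scipy 1.17.1), and a region belonged to each list with a peak there. Genes came from a GRCm38.p6 table without exons or strand, start sites and strands from RefSeq promoter windows. Trac was not matched among the marker genes. The commonest combination of fold and −log10 p in a list gave its background pileup, with p a Poisson tail and fold the ratio of pileup and background after adding 1 to each; pileups of other peaks follow from their fold and assume that background. A percentile is the share of a list's peaks with a −log10 q no higher. On simulated data, merging returned 100% of 500 planted patterns, and the locus counts differed from a recount of the planted peaks at 1 of 21627 genes. No test between conditions was made, with 1 library each.

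Members and gene lists were chosen with earlier results of these data known. Other pathway genes were named where they differed by 2 or more regions in at least 1 comparison; Nfatc4, Il2, Ifng and Csf2 fall outside this rule and were named with their values known.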

Additional observations from a re-analysis of the deposited data

Results flagged for a closer look

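Nfatc2 had a difference of opposite sign after stimulation in the 2 drug arms. It was 2 regions (3 against 1) in phenelzine-treated cells and −1 region (3 against 4) in untreated cells. Between the arms, the stimulated counts were equal and the unstimulated counts were not. The 3 Nfatc2 regions of the unstimulated untreated list alone were weak, with −log10 q of 1.11, 1.57 and 1.20. With −log10 q of at least 3 both differences were 0. With 50 kb flanks the difference in untreated cells was 0 and in phenelzine-treated cells 3. With lists of equal length the signs stayed opposite, at 1 with phenelzine and −2 without. The difference between the arms was not tested, since each arm has 1 library a state.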

How the results depend on the processing

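The 6 loci were recounted under 5 other settings. With −log10 q of at least 3 they held 4 regions in stimulated phenelzine, 5 in stimulated untreated, 2 in unstimulated phenelzine and 3 in unstimulated untreated cells, and Nfatc1 and Nfatc2 had none left. The net difference was then 2 for stimulation in phenelzine-treated cells and −1 for phenelzine in unstimulated cells, and Rcan1 turned to −1 for phenelzine in stimulated cells. With lists of equal length both stimulated lists held 8 regions. The net difference was then −3 for stimulation in untreated cells (Nfatc1 turned to −1), 2 for stimulation in phenelzine-treated cells and 0 for phenelzine in stimulated cells. Equal length leaves peaks down to −log10 q 2.02 in the stimulated phenelzine, 2.41 in the stimulated untreated, 1.67 in the unstimulated phenelzine and 1.00 in the unstimulated untreated list. With flanks of 50 kb the net difference for stimulation in untreated cells was 5. Of 120 differences of single genes under these settings, 85 stayed within 1.5 times of their value, 33 moved further and 2 changed sign. The 85 include all 24 differences under the 50% overlap. That setting could not change them, since each list held as many peaks as regions in these loci. Regions held by both stimulated lists alone were 0 of 7 with −log10 q of at least 3, against 6.49% of all regions. They were 2 of 14 with lists of equal length (2.99% of all regions). With an overlap of at least 50% they were 4 of 23 (5.28%). In the gene body alone they were 2 of 17 and with 50 kb flanks 3 of 28, against 5.88% of all regions. No paired analysis was possible because the results are counts of called regions that come from no test. The 44 peaks in the loci had a median implied pileup of 5.74 fragments, and sites with fewer may have gone undetected.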

Other observations

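The 9 promoter windows with an NFAT core, an AP-1 site and a cyclic AMP response element belonged to Gm32287, Gm32865, Gm41208, Gm52203, LOC108167342, Plekha4, Rcan1, Sox5os3 and Ttc1, and 4 of them held a peak in some list. Ttc1, a gene of a tetratricopeptide repeat protein, had one in all 4 lists. The windows of Gm32287 and Plekha4 each had one in 3 lists, and Rcan1 was the one with a peak in the stimulated phenelzine list alone. These genes were chosen by sequence, and the windows were found after the Rcan1 sequence had been seen. Over all windows, a peak of any list lay in 57.0% of those with the cyclic AMP response element, 45.5% of those with a GC box, 21.99% of those with an NFAT core and 14.3% of those with the AP-1 site, against 22.9% of all windows.

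A region 28.6 kb below the lower end of Ppp3ca, chromosome 3 from 136640733 to 136641083, was held by all 4 lists and lay outside the 20 kb flank.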
